A study of Mus musculus with 6 samples.

Results

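The genes described here are 36 genes of fatty acid oxidation: those that activate fatty acids, carry them into mitochondria, oxidise them in mitochondria or peroxisomes, and regulate these enzymes. They were chosen by gene symbol, with no measured value in the rule, and all 36 were on the arrays, through 48 of 55627 probes and among 34755 genes. For a gene with several probes, the brightest on average over the 6 arrays was used. Only 9 of the 36 genes had more than 1 probe, so 27 rest on a single place in the transcript.

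Fatty acids are joined to coenzyme A by acyl-CoA synthetases, handed to carnitine for passage across the inner mitochondrial membrane, and shortened by rounds of dehydrogenation, hydration, a further dehydrogenation and thiolysis. The electron transfer flavoprotein passes the electrons of the acyl-CoA dehydrogenases to the respiratory chain, and nuclear receptors of the PPAR and ERR families with their coactivators set the level of many of the genes. In macrophages fatty acid oxidation is known for its association with the alternatively activated state and as a route for lipid taken up from lipoproteins. MicroRNAs, made by Dicer and carried by Argonaute proteins such as AGO2, are known to repress several genes of the pathway.

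The macrophages were grown for 7 days from femoral bone marrow of mice, male per the labels and 6 to 8 weeks old, in DMEM-F12 with fetal calf serum and L929-conditioned medium. All mice had a LysM-Cre allele, active in cells of the myeloid lineage, and were Apoe-/- per the labels, the controls included. Dicer WT cells had Dicer wt/wt alleles and Dicer KO cells Dicer flox/flox alleles, so loss of Dicer depends on how completely Cre acted in the cultured cells. RNA came from cleared lysates (input), from a precipitate with a mouse monoclonal antibody to AGO2 (AGO2-RIP) or from a precipitate with control IgG (IgG-RIP), both after 7 hours with the beads. The RNA was pre-amplified, and 500 ng of cDNA was labelled with Cy3 for 1 array per genotype and fraction, 6 arrays in all. Whether cells of several mice were pooled, and which fractions came from the same culture, is not stated in the labels.

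The values below are log2 signals relative to the 75th percentile of the same array, so that 0 is the 75th percentile and a difference of 1 is 2-fold. On the 6 arrays, 37.6% to 46.3% of the 59305 spots lay well above background, and the repeated spots of a probe had an SD of 0.118 to 0.172 log2. That spot noise is error within an array and leaves out culture, precipitation and amplification. The 1 measure of error between arrays is that of the fit over all 6 arrays given further on. Dicer1 stood at 0.22 in WT input and -0.55 in KO input, at 0.93 and 0.94 in the AGO2-RIP arrays, and at 0.18 in WT IgG-RIP, and was not well above background in KO IgG-RIP. Whether its probe lies in the floxed part is not stated in the labels. Apoe was well above background on all 6 arrays, at 0.16, -0.83 and 0.55 in WT input, AGO2-RIP and IgG-RIP and at -0.01, -0.79 and 1.18 in KO, so RNA matching its probe was detected in both genotypes, and whether its probe lies in the disrupted part is not stated either. Xist was above background on the 3 WT arrays (0.14, 3.92 and 5.70 in input, AGO2-RIP and IgG-RIP) and on no KO array, while the Y-linked Ddx3y was above background on the 3 KO arrays (0.95, 1.81 and 0.51) and on no WT array. The WT arrays thus go against the labelled sex, and genotype, the sex-linked transcripts and the row on the slide cannot be told apart in any difference between WT and KO. Lyz2, the lysozyme gene that holds the LysM-Cre insertion, also parted the genotypes. It stood at 5.66, 3.56 and 4.11 in KO input, AGO2-RIP and IgG-RIP, while in WT it read -1.16 in IgG-RIP and was not well above background in input and AGO2-RIP. The number of LysM-Cre copies in each genotype is not stated in the labels, and the part of this difference in the results was not tested. Of 11 macrophage markers, 10 or 11 were above background on each array, with summed signals of 1398 to 2421 times the 75th percentile, against 0 to 3 of 9 neutrophil markers with sums of 0.815 to 1.81. Of 6 dendritic cell markers, 1 to 3 were above background, with sums of 58.3 to 126 that came mostly from Siglech, and of 4 megakaryocyte markers 1 or 2 were, with sums of 18.2 to 97.4 that came mostly from Pf4. Siglech and Pf4 were above background on all 6 arrays, Flt3 on 3, Itga2b on 2, and Zbtb46 and Itgax on 1 each, while Ccr7, Xcr1, Gp9 and Ppbp were on none. Of 8 T and NK cell markers, 2 to 4 were above background on each array, with sums of 3.97 to 13.4. Cd4 and Nkg7 of that list, the endothelial marker Kdr and the erythroid marker Hba-a1 were above background on all 6 arrays. Of 5 adipocyte markers, 1 or 2 were above background on each array, with sums of 2.26 to 6.70 that came mostly from Retn, and Adipoq and Lep were on none, while the part of other cells in the results was not tested.

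Most of the pathway was detected. Of the 36 genes, 24 were well above background on all 6 arrays, against 35.6% of all genes. A further 10 were above background on 1 to 5 arrays, and Acads, the short-chain acyl-CoA dehydrogenase, and Ppargc1a, the coactivator PGC-1 alpha, were on none. Ehhadh, the peroxisomal bifunctional enzyme, was above background on the WT AGO2-RIP array only, at -2.07. Slc25a20, the carnitine and acylcarnitine carrier, was above background in WT AGO2-RIP (-1.61) and KO input (-1.64) and not on the other arrays. The counts by array were 29 in WT input, 31 in WT AGO2-RIP, 28 in WT IgG-RIP, 31 in KO input, 30 in KO AGO2-RIP and 28 in KO IgG-RIP. Fewer cells that express a gene and less RNA of it per cell cannot be told apart in these bulk samples.

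**Figure D1:**
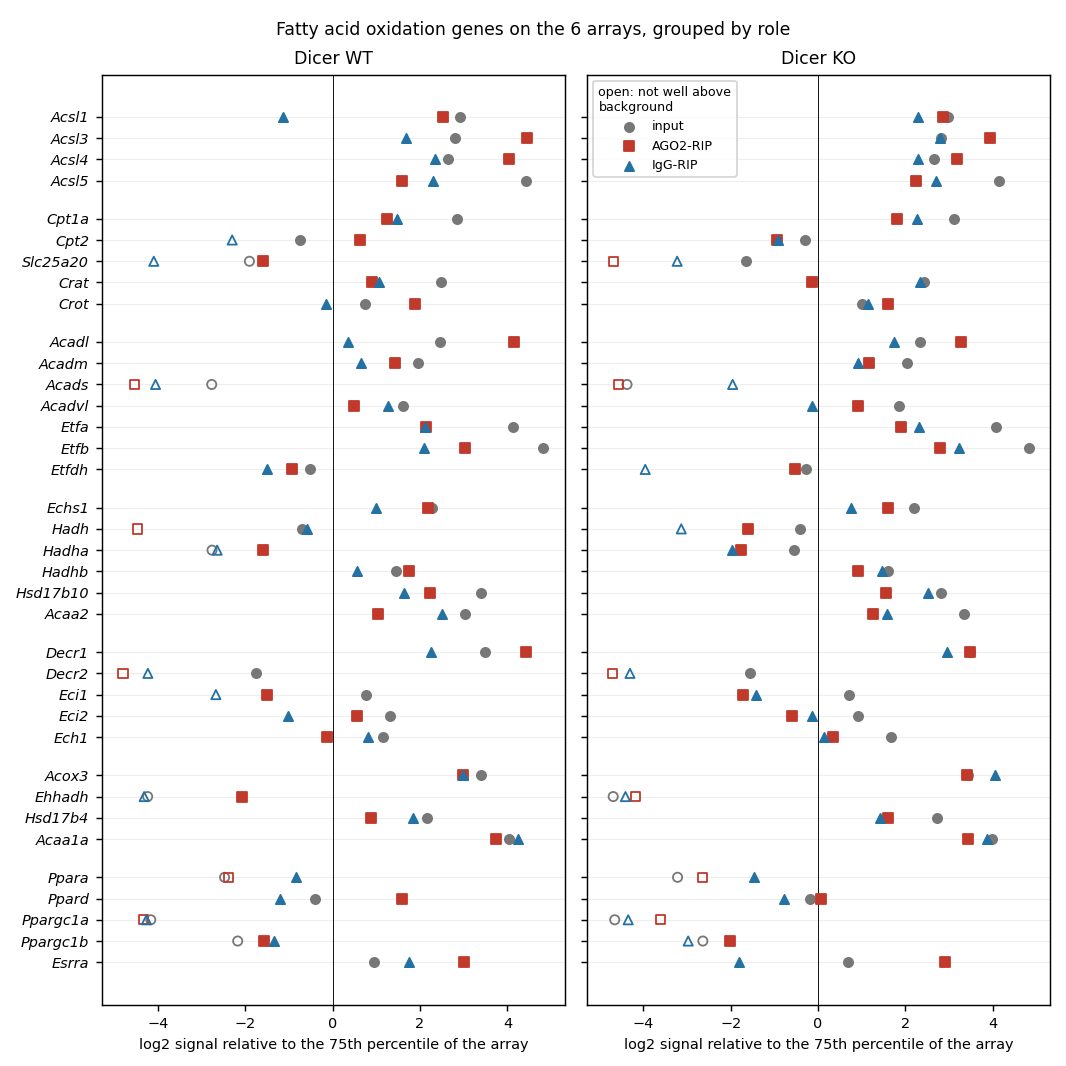
Log2 signal of the 36 genes (rows, grouped by role from acyl-CoA synthetases at the top to regulators at the bottom) relative to the 75th percentile of each array, with WT arrays on the left and KO arrays on the right. Circles are input, squares AGO2-RIP and triangles IgG-RIP, and open symbols are not well above background, as for Acads and Ppargc1a on every array.

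The comparison of the input arrays asks whether Dicer KO macrophages hold different amounts of these transcripts. Of the 29 genes above background on both input arrays, 0 differed by 2-fold or more, where 1.02% of 14661 genes were at least 2-fold higher in KO and 1.72% at least 2-fold lower. The KO minus WT differences ran from -0.58 for Hsd17b10 to 0.57 for Hsd17b4, with a median of 0.05 (median of all genes -0.08) and an SD between genes of 0.26, against 0.18 for the spot noise of such a difference. Hsd17b4, which encodes the main bifunctional enzyme of peroxisomal beta-oxidation, stood at 2.16 in WT input and 2.73 in KO input. Ech1, an auxiliary isomerase, was next with 1.15 and 1.67, followed by Cpt2, the carnitine palmitoyltransferase of the inner membrane, with -0.76 and -0.30. At the other end, Hsd17b10, a mitochondrial hydroxyacyl-CoA dehydrogenase encoded on the X chromosome, stood at 3.40 and 2.82. Eci2, an enoyl-CoA isomerase, had 1.30 and 0.92, and Esrra, the nuclear receptor ERR alpha, had 0.95 and 0.68. These 6 genes mark the ends of a narrow range.

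Hadha was the exception among genes with a dim array. It encodes the alpha subunit of the mitochondrial trifunctional protein and was not well above background in WT input (-2.77), while KO input read -0.54, which makes it at least 2.64-fold higher in KO input. Its partner subunit Hadhb, measured on both arrays, stood at 1.45 and 1.60. The 3 regulators that could not be compared in input, Ppara, Ppargc1a and Ppargc1b, were not well above background on either input array.

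The comparison of AGO2-RIP with IgG-RIP asks which transcripts the antibody to AGO2 brought down beyond the control antibody. In WT, 26 genes were measured on both arrays, and AGO2-RIP passed 2-fold upward for 11 and downward for 1, where 20.3% of 15209 genes did upward and 22.2% downward. The median was 0.68, against -0.24 for all genes. In KO, 27 genes were measured, with 4 past 2-fold upward and 1 downward, where 10.5% of 15645 genes were higher and 9.91% lower. The median was 0.19 against -0.19 for all genes, and -0.08 against -0.09 with normexp background correction. The counts over all genes moved with the scaling too. Median centring gave 13 higher and 1 lower in WT, where 3985 and 2018 of the 15209 genes were. Scaling to the 75th percentile of probes above background on every array gave 8 and 5, where 2245 and 5520 genes were. Quantile normalization gave 10 and 4 (2824 and 3950 genes), and normexp background correction 9 and 1 (2574 and 1185 genes). In KO the same settings gave 4 and 1 (1589 and 1603 genes), 4 and 1 (1597 and 1600), 4 and 2 (1800 and 1792), and 3 and 1 (997 and 480).

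**Figure D2:**
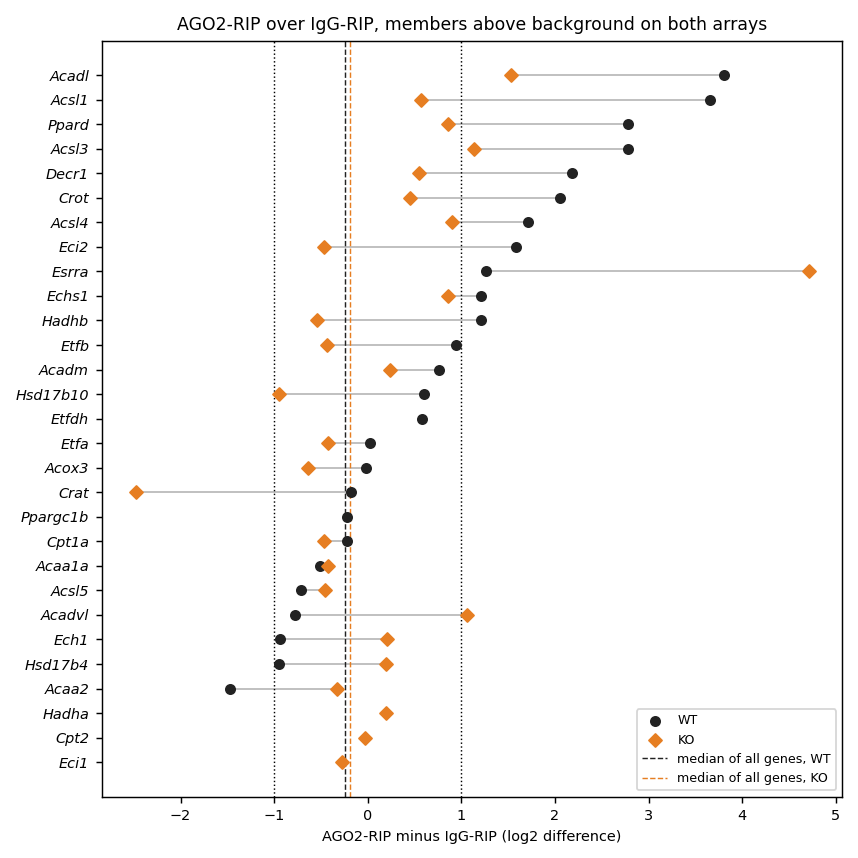
AGO2-RIP minus IgG-RIP (log2 difference) for every member above background on both arrays of a genotype, with WT as black circles and KO as orange diamonds joined by a line, dotted lines at 2-fold and dashed lines at the medians of all genes. Acadl and Acsl1 stand highest in WT (3.81 and 3.66), Esrra stands highest in KO (4.71), and Crat lowest in KO (-2.48).

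Among the 4 acyl-CoA synthetases, which activate long-chain fatty acids, AGO2-RIP was at least 2-fold higher than IgG-RIP for 3 in WT and for 1 in KO, with medians of 2.25 and 0.73. Acsl1 stood at 2.92, 2.53 and -1.13 in WT input, AGO2-RIP and IgG-RIP and at 2.98, 2.85 and 2.29 in the same KO fractions. The value that stands apart is WT IgG-RIP, and AGO2-RIP over IgG-RIP was 12.6-fold in WT while AGO2-RIP lay slightly below input in both genotypes. Acsl3, found on the endoplasmic reticulum and lipid droplets, read 2.79, 4.45 and 1.67 in WT and 2.82, 3.93 and 2.79 in KO. Its AGO2-RIP array was the highest of the 3 fractions in both genotypes, 6.88-fold over IgG-RIP in WT and 2.20-fold in KO. Acsl4, which prefers arachidonic acid, showed 2.64, 4.05 and 2.33 in WT and 2.66, 3.19 and 2.29 in KO, so its AGO2-RIP value was again the highest of each genotype. Acsl5 had 4.42, 1.58 and 2.30 in WT and 4.15, 2.24 and 2.69 in KO, with input far above both precipitates.

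For the carnitine acyltransferases and carrier, AGO2-RIP exceeded IgG-RIP by 2-fold for 1 of 3 measured genes in WT and 0 of 4 in KO. Crot, the peroxisomal carnitine octanoyltransferase, stood at 0.73, 1.89 and -0.16 in WT and 1.00, 1.60 and 1.15 in KO, and was 4.14-fold over IgG-RIP in WT. Cpt1a, the rate-limiting transferase of the outer mitochondrial membrane, had 2.84, 1.25 and 1.47 in WT and 3.11, 1.81 and 2.27 in KO, with input highest and AGO2-RIP lowest in both. A second, dimmer Cpt1a probe read -1.19 in WT input and was not well above background in the WT precipitates, and its KO values of -0.80, -0.79 and -1.04 put AGO2-RIP level with input and 0.24 above IgG-RIP. Cpt2, with the probe used, read -0.76 and 0.63 in WT input and AGO2-RIP, was not well above background in WT IgG-RIP, and read -0.30, -0.93 and -0.91 in KO. WT AGO2-RIP is its highest array, and the dim IgG-RIP array puts WT AGO2-RIP at least 6.31-fold above WT IgG-RIP. Crat, the carnitine acetyltransferase, stood at 2.49, 0.89 and 1.07 in WT and 2.44, -0.15 and 2.33 in KO. Its KO AGO2-RIP value is the lowest of the 6, 5.58-fold below KO IgG-RIP.

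Of the acyl-CoA dehydrogenases and the electron transfer flavoprotein, 6 genes were measured in WT with 1 at least 2-fold higher, and 5 in KO with 2. Acadl, the long-chain acyl-CoA dehydrogenase, had 2.46, 4.15 and 0.35 in WT input, AGO2-RIP and IgG-RIP and 2.33, 3.26 and 1.73 in KO. AGO2-RIP was the highest and IgG-RIP the lowest fraction in both genotypes, and its WT ratio of 14.0-fold over IgG-RIP lay above those of 99.1% of measured genes. Acadvl, the very long-chain enzyme, read 1.60, 0.49 and 1.26 in WT and 1.84, 0.92 and -0.14 in KO, so that AGO2-RIP lay below IgG-RIP in WT and 2.09-fold above it in KO. Acadm, the medium-chain enzyme, stood at 1.95, 1.42 and 0.65 in WT and 2.04, 1.17 and 0.93 in KO. Both flavoprotein subunits were highest in input: Etfa had 4.14, 2.13 and 2.10 in WT and 4.07, 1.89 and 2.32 in KO. Etfb showed 4.83, 3.03 and 2.08 in WT and 4.84, 2.78 and 3.22 in KO. Etfdh, the oxidoreductase that takes their electrons to ubiquinone, read -0.53, -0.93 and -1.51 in WT and -0.26 and -0.54 in KO input and AGO2-RIP. It was not well above background in KO IgG-RIP, which makes AGO2-RIP at least 3.05-fold higher there.

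For the hydratases, hydroxyacyl-CoA dehydrogenases and thiolases of mitochondria, 2 of 4 measured genes stood past 2-fold above IgG-RIP in WT and 1 below it, and 0 of 5 passed 2-fold in KO. Echs1, the short-chain enoyl-CoA hydratase, stood at 2.26, 2.19 and 0.98 in WT and 2.20, 1.61 and 0.75 in KO, with IgG-RIP lowest in both. Hadhb, the thiolase subunit of the trifunctional protein, read 1.45, 1.75 and 0.55 in WT and 1.60, 0.92 and 1.46 in KO, which puts AGO2-RIP above IgG-RIP in WT and below it in KO. Acaa2, the mitochondrial thiolase, had 3.02, 1.03 and 2.50 in WT and 3.34, 1.26 and 1.59 in KO. It was the 1 gene at least 2-fold below IgG-RIP in WT (-1.47). Hadha, dim on WT IgG-RIP, was at -1.59 in WT AGO2-RIP and at -1.77 and -1.96 in KO AGO2-RIP and IgG-RIP. Hsd17b10 completed the measured genes with 3.40, 2.22 and 1.62 in WT and 2.82, 1.56 and 2.51 in KO. Hadh, the hydroxyacyl-CoA dehydrogenase for shorter chains, read -0.70 in WT input and -0.59 in WT IgG-RIP but was not well above background in WT AGO2-RIP, at least 4.09-fold lower than IgG-RIP. In KO it read -0.41 in input and -1.60 in AGO2-RIP and was not well above background in IgG-RIP, so the dim precipitate differs between the genotypes.

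The auxiliary enzymes handle double bonds of unsaturated fatty acids. AGO2-RIP exceeded IgG-RIP by 2-fold for 2 of 3 measured genes in WT and for 0 of 4 in KO. Decr1, the mitochondrial dienoyl-CoA reductase, stood at 3.48, 4.42 and 2.24 in WT and 3.49, 3.49 and 2.95 in KO, 4.52-fold over IgG-RIP in WT. Eci2 read 1.30, 0.55 and -1.03 in WT and 0.92, -0.60 and -0.14 in KO, 1.59 above IgG-RIP in WT but below input in both genotypes. Ech1 had 1.15, -0.14 and 0.80 in WT and 1.67, 0.35 and 0.15 in KO. Eci1, the mitochondrial enoyl-CoA isomerase, stood at 0.76 and -1.50 in WT input and AGO2-RIP, was not well above background in WT IgG-RIP, and had 0.72, -1.71 and -1.43 in KO. Decr2, the peroxisomal reductase, was above background in input only, at -1.75 in WT and -1.56 in KO. For Eci1 and Decr2 input was thus the highest fraction of both genotypes.

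With the probes used, none of the 3 measured peroxisomal enzymes differed by 2-fold between AGO2-RIP and IgG-RIP in either genotype (0 of 3). Acox3, an acyl-CoA oxidase, stood at 3.39, 2.98 and 2.99 in WT and 3.44, 3.40 and 4.04 in KO. Hsd17b4 read 2.16, 0.88 and 1.83 in WT and 2.73, 1.61 and 1.42 in KO. Acaa1a, the peroxisomal thiolase, showed 4.05, 3.73 and 4.24 in WT and 3.99, 3.44 and 3.86 in KO, with no fraction far from the others.

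Among the regulators, 2 of 3 measured genes stood 2-fold or more above IgG-RIP in WT and 1 of 2 in KO. Ppard, the fatty acid-sensing receptor PPAR delta, stood at -0.40, 1.58 and -1.21 in WT and -0.17, 0.07 and -0.79 in KO. WT AGO2-RIP was its highest array, 6.89-fold over WT IgG-RIP, while the 3 KO values spanned 0.86. Esrra read 0.95, 3.01 and 1.75 in WT and 0.68, 2.90 and -1.81 in KO. Its 2 AGO2-RIP values were alike, and its 26.2-fold ratio over IgG-RIP in KO, above those of 99.9% of measured genes, turns on a KO IgG-RIP signal close to the lowest spot above background on that array (-2.15). Ppara, the receptor best known for driving the pathway in liver, was above background on the IgG-RIP arrays only with the probe used, at -0.85 in WT and -1.46 in KO, at least 2.92-fold and at least 2.12-fold above AGO2-RIP. A second Ppara probe read -2.23 in WT AGO2-RIP, -1.11 in WT IgG-RIP and -1.55 in KO AGO2-RIP and was not well above background in KO IgG-RIP, so the 2 probes agreed on which WT precipitate was higher and disagreed in KO. Ppargc1b, the coactivator PGC-1 beta, was above background at -1.57 and -1.36 in the WT precipitates and at -2.01 in KO AGO2-RIP.

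The next comparison asks in which fraction the genotypes part. Over the 24 genes measured on all 4 precipitates, AGO2-RIP over IgG-RIP was at least 2-fold higher in WT than in KO for 11 and at least 2-fold lower for 5, where 20.2% of 14048 genes were higher and 16.5% lower. The largest differences toward WT were Acsl1 (3.09), Crat (2.30), Acadl (2.27), Eci2 (2.05) and Ppard (1.93). Toward KO they were Esrra (-3.45), Acadvl (-1.83), Acaa2 (-1.15), Hsd17b4 (-1.14) and Ech1 (-1.14). Median centring gave 12 and 2, where 4003 and 1370 of the 14048 genes were, and normexp 11 and 2, where 2010 and 1078 were. A ratio of this kind holds 4 arrays, so each fraction was compared by itself.

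Between the AGO2-RIP arrays, 29 genes were measured, of which 0 were at least 2-fold higher in KO and 4 at least 2-fold lower, where 6.9% of 16386 genes were higher and 11.0% lower. The 4 were Cpt2 (KO minus WT -1.56), Ppard (-1.51), Eci2 (-1.16) and Crat (-1.03). The median was -0.25 against -0.03 for all genes, and 0.02 against 0.24 with scaling to probes above background on every array. Hadh, dim in WT AGO2-RIP, was at least 2.03-fold higher in KO AGO2-RIP. The counts moved with the scaling, as those over all genes did. Median centring gave 0 higher and 8 lower, where 717 and 2661 of the 16386 genes were. The percentile of probes above background on every array gave 1 and 2 (2073 and 973 genes), and normexp 0 and 1 (327 and 983 genes).

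Between the IgG-RIP arrays, a comparison added after the data were seen, 25 genes were measured, with KO past 2-fold above WT for 7 and below it for 2, where 11.0% of 14888 genes were higher and 8.93% lower. Acsl1 differed most (KO minus WT 3.42), followed by Acadl (1.38), Crot (1.31), Crat (1.27), Etfb (1.14), Acsl3 (1.13) and Acox3 (1.05). Lower in KO IgG-RIP were Esrra (-3.55) and Acadvl (-1.40). Among genes with a dim array, Cpt2 was at least 2.18-fold higher and Hadh at least 2.95-fold lower in KO IgG-RIP. The median was 0.42, against -0.01 for all genes. Median centring gave 10 and 2, where 1939 genes were higher and 1050 lower, and normexp 1 and 1, where 769 and 492 were. The Acox3 probes gave 1.05 (probe used), 0.80 and -0.19. The median level of its probes on each array, taken before the difference, gave -0.19. The 5 largest differences of AGO2-RIP over IgG-RIP toward WT thus lay in different fractions. Those of Acsl1 (with the probe used), Crat and Acadl held a difference past 2-fold between the control precipitates. Those of Crat, Eci2 and Ppard held one between the AGO2 precipitates. The Esrra difference toward KO lay in the IgG-RIP arrays, since its AGO2-RIP signals were 3.01 and 2.90.

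**Figure D3:**
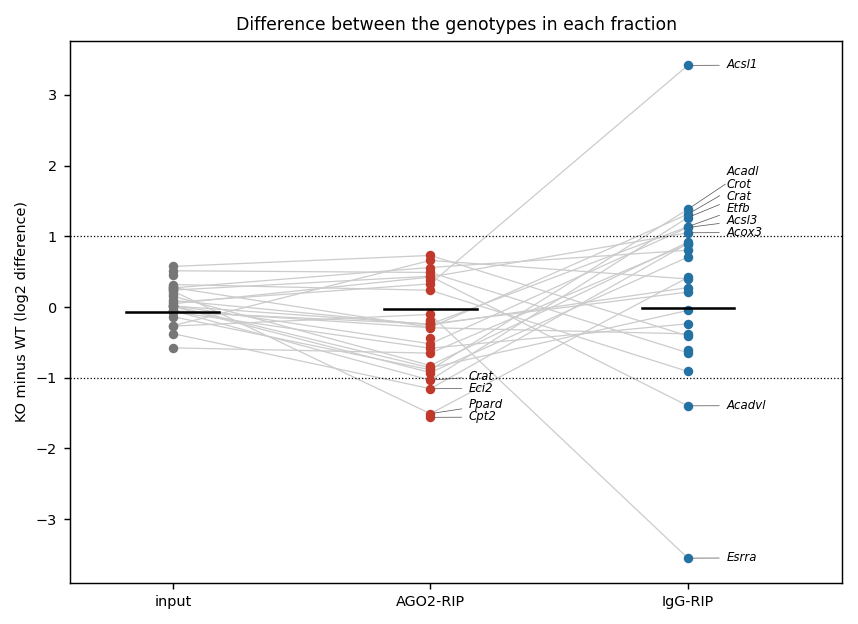
KO minus WT (log2 difference) of the members measured in input, AGO2-RIP and IgG-RIP, with grey lines joining genes measured in all 3, black bars at the medians of all genes and dotted lines at 2-fold. The input points lie between -0.58 and 0.57, while the IgG-RIP points run from -3.55 (Esrra) to 3.42 (Acsl1).

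Input offers a second reference for the AGO2 precipitate, with the AGO2-RIP array shared between the comparisons. In WT AGO2-RIP, 7 of 27 measured genes stood past 2-fold above input and 11 below it, where 14.8% of 14415 genes were higher and 26.4% lower. The 7 were Esrra (2.06), Ppard (1.98), Acadl (1.69), Acsl3 (1.66), Acsl4 (1.41), Cpt2 (1.39) and Crot (1.16). In KO, 2 of 29 were past 2-fold above input, Esrra (2.22) and Acsl3 (1.11), and 13 below it, where 14.6% of 15282 genes were higher and 26.4% lower. Acadl, at 0.94, stood just under 2-fold in KO. The WT difference exceeded the KO difference by 2-fold or more for 2 of 27 genes, Cpt2 (2.02) and Ppard (1.74), and 0 went the other way, where 11.6% and 6.97% of 13865 genes did. Median centring gave 6 and 0 for this count, where 2419 and 578 of the 13865 genes were, and the 24 genes above background on all 6 arrays gave 1 and 0. For the counts against input, scaling to probes above background on every array gave 8 higher and 7 lower in WT (3268 and 2624 genes). In KO it gave 5 and 6 (4210 and 2107 genes). Median centring gave 6 and 12 in WT (1514 and 4939 genes) and 1 and 19 in KO (1203 and 6325 genes).

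Taking both references, 6 of 25 genes stood at least 2-fold above IgG-RIP and input in WT, where 7.76% of genes did: Acsl3, Acsl4, Crot, Acadl, Ppard and Esrra. In KO, Acsl3 and Esrra did so, 2 of 27, where 3.09% of genes did. Acsl3, Acadl and Esrra stood past 2-fold over IgG-RIP in both genotypes, 3 of 24, where 6.32% of genes did. Acsl3 and Esrra did so over both references in both genotypes, 2 of 24 genes measured on all 6 arrays, where 2.1% of genes did. Acsl1, with the second-highest WT ratio over IgG-RIP, was not among them, because its WT AGO2-RIP signal lay 0.39 below input. These sets moved with the scaling. Median centring shifted AGO2-RIP minus input by -0.50 in KO and -0.28 in WT. That put Acsl3 in KO (1.11) and Crot in WT (1.16) under 2-fold. Scaling to probes above background on every array shifted AGO2-RIP minus IgG-RIP in WT by -0.37, which put Esrra (1.26) under 2-fold. It shifted AGO2-RIP minus input in KO by 0.56, which put Acadl (0.94) past 2-fold.

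**Figure D4:**
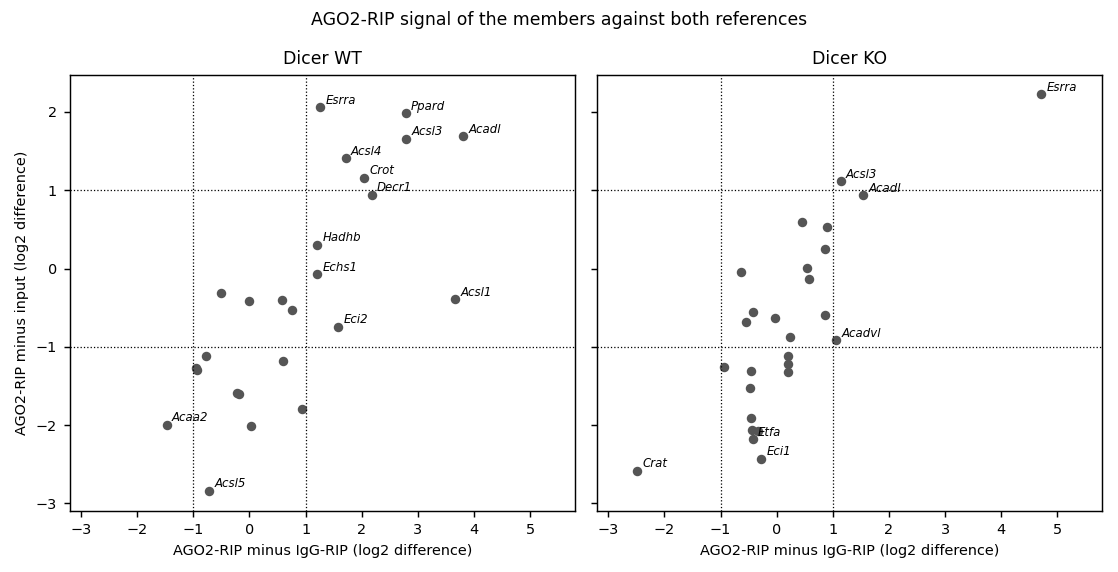
AGO2-RIP minus IgG-RIP (horizontal) against AGO2-RIP minus input (vertical), both log2 differences, for members measured on the 3 arrays of WT (left) and KO (right), with dotted lines at 2-fold. Both axes use the same AGO2-RIP array, so the points show which genes stand above both references, 6 at the upper right in WT and 2 in KO.

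Other members were highest in input. Acsl5, Etfa and Etfb were at least 2-fold below input in both precipitates of both genotypes, 3 of 24 genes, where 14.6% of genes were. IgG-RIP was at least 2-fold lower than input for 13 of 26 genes in WT and 13 of 27 in KO, where 37.0% of 13346 and 28.8% of 14333 genes were, and 0 were at least 2-fold higher, where 18.6% and 17.5% were. Scaling to probes above background on every array gave 1 higher and 7 lower in WT, where 4468 and 2716 genes were. In KO it gave 1 and 6, where 4386 and 1990 genes were. Among genes with a dim array, Ppara in WT was at least 2.14-fold higher in IgG-RIP than in input. Eci1 and Cpt2 in WT were at least 6.90-fold and 2.41-fold lower, and Etfdh and Hadh in KO at least 3.68-fold and 3.32-fold lower.

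The pattern shared by both genotypes was tested with limma, an additive fit of genotype and fraction over the 6 arrays on 18883 genes, of which 33 were members. Its error is the unequal response of the 2 genotypes, so genes whose precipitation differs between WT and KO tend not to be called. For AGO2-RIP against IgG-RIP, 0 members and 0.0% of all genes passed an adjusted p of 0.05. At an unadjusted p under 0.05 there were 8 members higher and 1 lower, where 12.2% and 6.64% of genes were. The limma estimate for Acadl was 2.67 ± 0.62 (SE), with the smallest Benjamini-Hochberg adjusted p among the members, 0.135, and Acsl3 had 1.96 ± 0.52 with an adjusted p of 0.164. Over genes above background on all 6 arrays, 1 of 24 members was called higher, Acadl, where 539 of 12382 genes were. Without the KO IgG-RIP array, the control was WT IgG-RIP alone. The member median was then 0.61 against -0.14 for all genes, where the main fit had 0.37 against -0.15.

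For AGO2-RIP against input, limma called 4 members lower, where 5.77% of genes were, and 0 higher, where 4.46% of genes were. At an unadjusted p under 0.05, 1 member was higher, where 15.4% of genes were, and 10 were lower, where 18.1% of genes were. Scaling to probes above background on every array gave 6 higher and 7 lower at that p, where 4546 of the 6517 genes under it were higher. The 4 were Acsl5 (-2.38 ± 0.42 SE, Benjamini-Hochberg adjusted p = 0.0398), Etfa (-2.09 ± 0.38, 0.0403), Eci1 (-2.34 ± 0.51, 0.0494) and Decr2 (-3.10 ± 0.37, 0.0374). Decr2 was not well above background on any precipitate, so its estimate rests on dim values, and its bounds against input lay under 2-fold in both genotypes. Eci1 was above background on the 4 arrays of this comparison, and its dim WT IgG-RIP value enters the SE only. For IgG-RIP against input, limma called 5 lower (Acsl5, Decr2, Eci1, Etfa and Etfb) and 1 higher (Ppara), where 15.9% and 14.3% of genes were. Ppara was not well above background on either input array (-2.48 in WT and -3.22 in KO). Its bounds were at least 2.14-fold higher in WT and at least 1.97-fold in KO. In this comparison the dim WT IgG-RIP value of Eci1 enters the estimate as well. At an unadjusted p under 0.05, Ppara was again the 1 member higher, where 21.1% of genes were, and 11 were lower, where 25.8% of genes were. Quantile normalization brought the calls of AGO2-RIP against input to 0. With an input or an AGO2-RIP array left out, 1 array of that fraction remained, and the calls were not kept. Leaving out either IgG-RIP array gave the fit of the 4 input and AGO2-RIP arrays alone, since a lone IgG-RIP array does not enter the comparison. That 1 fit called 1 member higher and 8 lower, where 2106 and 2540 of 18883 genes were. For IgG-RIP against input, leaving out either AGO2-RIP array likewise gave the fit of the 4 arrays alone. It called 0 members higher and 3 lower, where 1921 and 1600 of 18883 genes were. With an input or an IgG-RIP array left out, 1 array of that fraction remained, and the calls moved. For KO against WT over all fractions, limma called 0 members, and 0.0% of all genes were called higher or lower. At an unadjusted p under 0.05 there were 0 members, where 1.82% of genes were higher and 2.62% lower.

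Genes with several probes show how far a value holds along the transcript. The probes below are shown by their first 30 bases because they are the ones on which the Acsl1 and Cpt2 values turn, 5′ to 3′ as in the array files, with mm9 positions of the whole probe. Whether they lie in coding or untranslated exons was not analysed here.
Acsl1, probe used, chr8:47621232-47621291, plus strand: gcctaacttcatactcgtattcttaattgc
Acsl1, other probe, chr8:47619774-47619833, plus strand: agagctacggaactatttcaggtcgcagat
Cpt2, probe used, chr4:107576591-107576650, minus strand: gggttggaaagctaactcagctgtatttat
Cpt2, other probe, chr4:107580325-107580384, minus strand: attgtgaatccctcagaaatccaggcacat

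The 2 Acsl1 probes went opposite ways over IgG-RIP in WT. The probe used gave 3.66 in WT and 0.57 in KO, while the other gave -0.84 and -1.90, with levels of 1.94, 0.65 and 1.49 in WT input, AGO2-RIP and IgG-RIP and 2.36, -0.63 and 1.27 in KO. The low WT IgG-RIP signal of Acsl1, and with it the largest KO minus WT difference among the IgG-RIP arrays, was therefore seen with 1 of 2 probes. With the other probe, KO minus WT was -0.22 in IgG-RIP and -1.28 in AGO2-RIP, against 3.42 and 0.33 with the probe used. The other probe thus passed 2-fold between the AGO2 precipitates and not between the control precipitates. For Cpt2, the other probe read -0.82, -0.32 and 0.44 in WT and -0.64 and -1.97 in KO input and AGO2-RIP, and was not well above background in KO IgG-RIP. It put AGO2-RIP below IgG-RIP in WT (-0.76), opposite to the bound of the probe used. Both Cpt2 probes were lower in KO AGO2-RIP than in WT AGO2-RIP (KO minus WT -1.56 and -1.66), and both were above input in WT AGO2-RIP, by 1.39 and 0.50.

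The 2 other probes of Acox3 gave -1.04 and -1.76 over IgG-RIP in WT, against -0.02 for the probe used. In KO they gave -1.17 and -0.35, against -0.64 for the probe used. Etfa had 0.03 and 1.20 in WT, and the 3 Etfb probes 0.94, 0.07 and -0.30, while input was the highest fraction with each of these 5 flavoprotein probes. Decr1 had a second, dimmer probe that was not well above background on either IgG-RIP array. With it, AGO2-RIP minus input was -0.56 in WT and -0.94 in KO, against 0.94 and 0.01 for the probe used. Acsl3, Acsl4, Crot, Acadl, Ppard and Esrra, the 6 genes above both references in WT, have 1 probe each, so no such check was possible for them. The probes of Acsl4, Crot, Acadl, Ppard and Esrra are shown for that reason, again by their first 30 bases.
Acsl4, chrX:138752591-138752650, minus strand: cacgattgtaggattgttccttagattttt
Crot, chr5:8966430-8966489, minus strand: actttctaattgccagagggataaagcaca
Acadl, chr1:66877673-66877732, minus strand: gtcttacttgtctttcaaattctgaagagc
Ppard, chr17:28438298-28438357, plus strand: agtctccaaatctgaaatgtatatttttgc
Esrra, chr19:6985503-6985562, minus strand: cagagactctattttaatgtatatttgctg

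**Figure D5:**
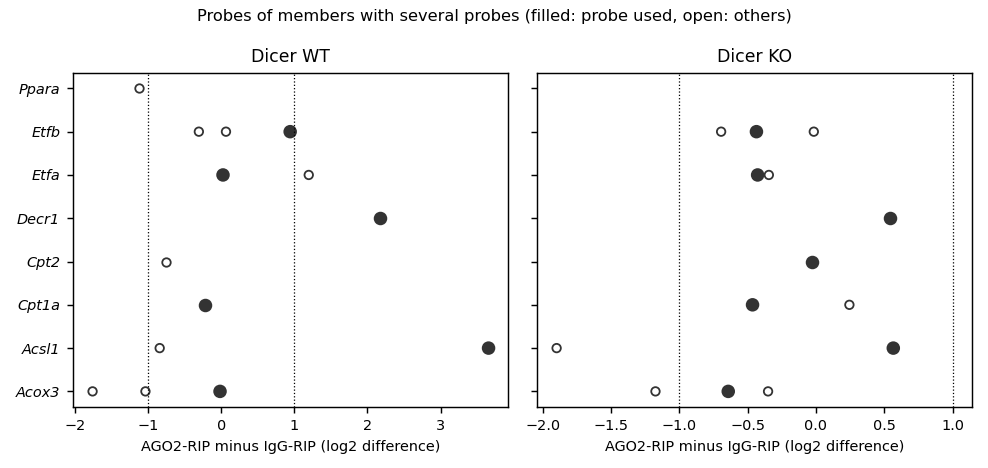
AGO2-RIP minus IgG-RIP (log2 difference) of each measured probe of members with several probes, WT on the left and KO on the right, filled for the probe used and open for the others, with dotted lines at 2-fold. The WT values of the Acsl1 probes lie at 3.66 and -0.84.

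Genes around the pathway were counted in the same way. Of 16 genes of fatty acid uptake, binding and release, 14 were measured in WT, and AGO2-RIP was at least 2-fold higher than IgG-RIP for 5 and lower for 0. In KO, 0 of 15 passed 2-fold. The shares over all genes, which also stand behind the counts of the next lists, were 20.3% higher and 22.2% lower in WT and 10.5% and 9.91% in KO. The highest in WT were Pnpla2, the lipase that opens triglyceride breakdown (3.18), and Fabp4, a fatty acid-binding protein (3.18). In input, Fabp4 was lower in KO (-1.56) and Lpl, lipoprotein lipase, higher (1.13), while the other 12 measured genes stayed within 2-fold. Of the further mitochondrial enzymes, 3 of 17 passed 2-fold above IgG-RIP in WT and 2 below it, and 3 of 17 were higher and 3 lower in KO. Peroxisomal oxidation and import genes had 4 of 12 higher in WT and 1 of 11 in KO, with 0 lower in both. In input, 0 of the 18 further mitochondrial and 0 of the 11 peroxisomal genes passed 2-fold.

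Of 23 further regulators of oxidative metabolism, AGO2-RIP was at least 2-fold higher than IgG-RIP for 9 of 16 measured genes and lower for 4 in WT, where 20.3% and 22.2% of all genes were, and higher for 7 of 14 and lower for 0 in KO, where 10.5% and 9.91% were. Pparg, the receptor PPAR gamma, led in WT (3.12), followed by Lcor (2.94), and Myc led in KO (2.66). Lcor, a ligand-dependent corepressor of nuclear receptors, was the 1 regulator of 19 past 2-fold in input (KO minus WT 2.40), with 0.42, 2.65 and -0.29 in WT input, AGO2-RIP and IgG-RIP and 2.82, 2.59 and 1.99 in KO. WT AGO2-RIP stood above the other WT fractions, and the 3 KO fractions lay nearer to it than to those.

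MicroRNA abundance was not measured by these arrays. The mature sequences of a pair of microRNAs are shown because Lcor is known as a target of miR-10a and the human genes CROT, CPT1A and HADHB as targets of miR-33. Capitals mark the seed, bases 2 to 8, and the sequences are those of RefSeq on GRCm38.p6.
mmu-miR-10a-5p: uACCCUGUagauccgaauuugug
mmu-miR-33-5p: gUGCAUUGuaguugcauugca
The seeds differ. In WT, AGO2-RIP over IgG-RIP was 2.05 for mouse Crot, 1.21 for Hadhb and -0.22 for Cpt1a (log2 differences). In KO the differences were 0.45, -0.54 and -0.46. In the same order, AGO2-RIP minus input was 1.16, 0.30 and -1.59 in WT and 0.60, -0.68 and -1.30 in KO. KO minus WT was -0.29, -0.83 and 0.56 in AGO2-RIP and 1.31, 0.92 and 0.80 in IgG-RIP. The part of miR-33 in these values was not tested. A match to the miR-33 seed (CAATGCA on the strand of the probe) was in 1 of the 48 member probes, that of Ppargc1a, and in 0.43% of all probes. The miR-10a match (ACAGGGT) was in 1, that of Crat, and in 0.354% of all probes. The 60-base probes cover a small part of a transcript, so these counts say nothing of sites elsewhere in it.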

How the data were processed

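RNA of 6 samples was measured on 1-colour Agilent arrays of 60-base probes. The deposited values are processed intensity values from Agilent Feature Extraction 10.7.3.1, per the file headers background-subtracted and detrended, with mm9 probe positions and not normalized between arrays. From these, log2 intensity minus the array's 75th percentile was computed over 59305 non-control spots, outlier spots were left out (54 probes), spots of a probe were averaged, and each gene took its probe with the highest mean. Names came from the array files and RefSeq (GRCm38.p6, names only). A gene counted as measured if each array compared had it well above background. Where 1 array was dim, the bound used the higher of the dim value and the lowest spot above background on that array. With 1 array per group there is no test of a difference between single arrays, and p-values of the additive fit measure the spread between these samples, which may be technical.

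The fit used limma 3.58.1 in R 4.3.3 (two-sided, Benjamini-Hochberg adjustment, 18883 genes above background on at least 2 arrays, 2 residual degrees of freedom). It was run on simulated data with independent noise and the same response in both genotypes. That run checked that added differences were recovered and did not test the p-values for this design. Other steps used Python 3.11.15, pandas 2.3.3 and numpy 2.4.6. The KO arrays lay on slide row 1 and the WT arrays on slide row 2 of 1 slide. The members and lists were chosen with earlier results of these data known. Values on every array are given for members past 2-fold over IgG-RIP or between genotypes, called by limma or at either end of a comparison, and of the other lists the 2 highest and 2 lowest genes may be named. Pre-amplification and equal cDNA mass make all differences relative. Alternatives were median centring, other percentiles, quantile normalization, normexp with an offset of 50, other probe rules, filters, a 3-fold threshold and leaving out arrays. The sequence of 1 probe is not reported here.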

Additional observations from a re-analysis of the deposited data

Results flagged for a closer look

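For 6 members the difference between fractions had opposite signs in WT and KO, each beyond 2 times the spot noise, and with 1 array per group the difference between the genotypes was not tested. AGO2-RIP over IgG-RIP was -0.77 in WT and 1.06 in KO for Acadvl. It was 1.21 and -0.54 for Hadhb, and 0.60 and -0.95 for Hsd17b10. Eci2 had 1.59 in WT and -0.47 in KO. Cpt2 stood 1.39 above input in WT AGO2-RIP and at -0.63 against input in KO AGO2-RIP. Esrra stood 0.80 above input in WT IgG-RIP and at -2.49 against input in KO IgG-RIP. These 6 pairs were found among 3 comparisons of fractions, 4 over IgG-RIP, 1 of AGO2-RIP against input and 1 of IgG-RIP against input.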

How the results depend on the processing

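Of 535 alternative values of the member differences past 2-fold, 534 kept their sign and 447 stayed past 2-fold. The 1 that reversed was Acox3, KO minus WT in IgG-RIP, at -0.19 with the median level of its probes on each array. The alternatives rescale the same probe or take the median of the probes, which changes nothing for the 27 genes with 1 probe. Acsl1 over IgG-RIP in WT counts as kept, though its probes gave 3.66 and -0.84. Kept signs therefore do not show that a second probe would give the same. Of the 135 alternative counts, 94 lay within 1.5 times the count reported, and counts of 0 that stayed at 0 are among these. Each count adds members higher and lower, so a changed balance of directions can count as kept. For AGO2-RIP over IgG-RIP in WT, 8 higher and 5 lower count as kept against 11 and 1. For AGO2-RIP against input in KO, so do 5 and 6 against 2 and 13. With no filter on dim genes, the members past 2-fold numbered 2 for KO against WT in input, 7 in AGO2-RIP, 19 for AGO2-RIP over IgG-RIP in WT, 10 in KO, and 8 for the WT minus KO difference over input. At 3-fold they numbered 0 for KO against WT in AGO2-RIP, 2 for AGO2-RIP over IgG-RIP in KO, 11 and 7 over input in WT and KO, and 7 and 6 for IgG-RIP against input. Fold counts over all genes were not worked out with no filter or at 3-fold, so these member counts have no share beside them. Median centring gave 8 for KO against WT in AGO2-RIP and 6 for the WT minus KO difference over input, which was 1 over genes above background on all 6 arrays. Normexp gave 1 for KO against WT in AGO2-RIP, and the percentile of probes above background on every array gave 8 and 7 for IgG-RIP against input in WT and KO. The limma calls of AGO2-RIP over IgG-RIP were 1 of 24 over genes above background on all 6 arrays, where 539 of 12382 genes were called higher and 41 lower. The count also moved without the KO IgG-RIP array. Those of AGO2-RIP against input were 1 with that percentile (lower), where 1419 genes were called higher and 491 lower of 18883. Normexp gave 7 (1 higher and 6 lower), where 1211 and 2433 genes were. Quantile normalization gave 0, where 0 genes were, and no filter 2 (both lower), where 444 and 584 of 34755 genes were. Over genes above background on all 6 arrays they were 7 (all lower), where 1128 and 2584 of 12382 genes were called higher and lower. They were 9 with the 4 arrays of the fractions alone (2106 and 2540 of 18883 genes), the same fit as without either IgG-RIP array. Without an input or an AGO2-RIP array they were not kept. Those of IgG-RIP against input were 11 with median centring (all lower), where 1857 genes were called higher and 5001 lower. That percentile gave 3 (1 higher and 2 lower), where 4272 and 1112 genes were. Quantile normalization gave 2 (both lower), where 1992 and 1264 genes were. They were 3 with the 4 arrays alone, the same fit as without either AGO2-RIP array, and moved without an input or an IgG-RIP array. Those of KO against WT stayed at 0 in every setting, where the main fit called 0.0% of all genes. The cause of these shifts was not tested, beyond the fewer genes or arrays that some settings hold. The counts over all genes move with the setting as well, so these counts are not to be set against the main shares. Median centring moved the median of all genes by 0.30 for AGO2-RIP over IgG-RIP in WT, and the percentile of probes above background on every array by -0.37, shifts that members and all genes share by construction. The member median stood above that of all genes by 0.92 in WT (0.79 with normexp) and by 0.39 in KO (0.02 with normexp). Dim signals limit the low members, for which only bounds can be given. The additive fit compares fractions within each genotype, so genotype is its block. Beyond that block, pairing by replicate number could not be done, since each group has 1 array.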
